A study of Homo sapiens with 8 samples.

Results

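The 39 genes described here act in glucose uptake and glycolysis or belong to the response to low oxygen. They were taken as a list of current gene symbols and matched by Ensembl gene ID, and all 39 were found among the 49733 gene IDs of the deposited tables. By role they comprised 4 transporters, 17 glycolytic enzymes, 3 regulatory kinases, 4 genes of the hypoxia-inducible factors and their oxygen sensors, and 11 hypoxia-responsive genes. Expression was measured by sequencing poly-A RNA of HepG2, a line derived from a human hepatocellular carcinoma, which was grown to 80% confluence and then given fresh medium. The medium held either 2 µM benzo[a]pyrene (BaP), a combustion product and ligand of the aryl hydrocarbon receptor, in DMSO, or 0.5% DMSO alone as vehicle. The 4 groups of 2 libraries each, from independent experiments, were BaP at 24 h, vehicle at 24 h, BaP at 12 h and vehicle at 12 h. HepG2 is a tumour line kept as a monolayer, so the values describe 1 line in culture and not liver tissue.

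Glycolysis splits glucose into pyruvate in the cytosol, and the step catalysed by hexokinase and that catalysed by phosphofructokinase are its main points of control. The transcription factors HIF-1 and HIF-2 are pairs of an oxygen-regulated subunit (HIF1A or EPAS1) and ARNT, which is also the partner of the aryl hydrocarbon receptor. In oxygen, prolyl hydroxylases of the EGLN family mark the regulated subunit for degradation; when oxygen is short the subunit persists and binds response elements with the core ACGTG or GCGTG beside genes for glucose uptake, glycolysis and angiogenesis. HIF1A is thus regulated largely as a protein, which was not measured here.

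Total counts per library ranged from 2592272, in replicate 1 of BaP at 24 h, to 16533490, so the 3 counts that a count of 0 allows equal 0.181 to 1.16 CPM (counts scaled to library depth), for counting error only. CYP1A1, a target of the aryl hydrocarbon receptor used as the check of exposure, had 966 and 1060 CPM in BaP against 6.57 and 3.49 CPM in vehicle at 12 h, and 376 and 306 CPM in BaP against 1.61 and 1.5 CPM in vehicle at 24 h. Of 9 hepatocyte markers (ALB, APOA1, APOB, AFP, TTR, SERPINA1, HNF4A, FGB and TF) all were tested, and together they held 2.00% to 3.23% of the counts of a library. Among markers of other cells, DCN, LUM, CD3E, CD163 and KDR had no count in any library, and PTPRC did not exceed 0.188 CPM. Others of them did have counts, totalling 3638 over the 8 libraries for CD68, 1644 for COL1A1, 1518 for PDGFRB, 247 for CD14 and 96 for CDH5.

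The glycolytic enzymes together took 1.42% to 1.75% of all counts of a library. In TPM, a share of all transcripts that is corrected for gene length, GAPDH, which oxidises glyceraldehyde 3-phosphate, had the highest level of the list, with a median of 5301 TPM over the 8 libraries. It was followed by the aldolase ALDOA with a median of 2497 TPM, the enolase ENO1 with 1553 TPM, the triose-phosphate isomerase TPI1 with 990 TPM and the lactate dehydrogenase LDHA with 830 TPM. Of each set of isoenzymes 1 gene held most of the transcripts. The level of ALDOA in TPM was at least 72.5 times that of ALDOC, the level of ENO1 at least 46.5 times that of ENO2, and the level of the liver-type phosphofructokinase PFKL at least 26.6 times that of PFKP in every library. The hexokinase HK2, a high-affinity form typical of tumours, had a median of 25.2 TPM against 2.54 TPM for HK1, and was higher in 8 of 8 libraries. Among the glucose transporters SLC2A1 (GLUT1) had a median of 717 TPM, SLC2A3 (GLUT3) had 199 TPM, and SLC2A2 (GLUT2), the transporter of normal hepatocytes, had 10.0 TPM, in that order in 8 of 8 libraries. EPAS1 exceeded HIF1A by 1.63 to 2.21 times in TPM, and the sensor EGLN1 exceeded EGLN3 by 7.18 to 19.0 times.

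At the low end of the list, LDHB, the lactate dehydrogenase subunit of oxidative tissues, had 21 counts over the 8 libraries and was the 1 gene of the 39 that did not reach the minimum for testing. LDHA therefore exceeded LDHB by at least 1325 times in TPM in those libraries where LDHB had a count. PFKM, the muscle-type phosphofructokinase, had 66 counts over all libraries and was tested, with wide errors. Reads of GAPDH could have been shared with 64 annotated pseudogene IDs, which held 0.145% of the combined counts. The largest such share was that of LDHB, at 84.3%, with 113 counts over 3 pseudogene IDs against 21 of its own. The level of LDHB and its ratio to LDHA thus depend on how those reads were assigned. The next largest share was that of BNIP3, at 13.4% over 5 pseudogene IDs, and adding its pseudogene reads changed no call of BNIP3.

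At 12 h of BaP the 3 glucose transporters of the SLC2A family fell to 0.458 to 0.510 times the level in vehicle and HK2 fell to 0.739 times, while HIF1A and ADM rose. Of the 38 genes tested 4 were lower, where 4.84% of all 14746 genes tested were lower, and 2 were higher, where 3.41% of all genes were higher. Calls rest on edgeR's quasi-likelihood test with Benjamini-Hochberg adjustment over all genes tested, with a threshold of 0.05. The median log2 fold change was -0.06 over the 38 genes and 0.02 over all genes tested. In bulk RNA, fewer cells that express a gene and less of its RNA per cell cannot be told apart.

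SLC2A1, the main glucose transporter of most cultured cells, had 566 and 598 CPM in BaP at 12 h, against 1373 and 1169 CPM in vehicle at 12 h. Both BaP libraries lay below both vehicle libraries, and the log2 fold change was -1.13 (SE 0.15, adjusted p = 0.00012), a level 0.458 times that of vehicle. SLC2A3, a high-affinity transporter best known from neurons, had 270 and 229 CPM in BaP at 12 h, against 512 and 468 CPM in vehicle. The groups did not overlap, and the log2 fold change was -0.97 (SE 0.14, adjusted p = 0.00021). SLC2A14, a near copy of SLC2A3 with which reads can be shared, had 4.83 and 5.66 CPM in BaP and 8.59 and 8.69 CPM in vehicle at 12 h. SLC2A2, the low-affinity transporter through which hepatocytes take up and release glucose, had 7.09 and 8.78 CPM in BaP at 12 h, against 16.2 and 18.2 CPM in vehicle. It too showed no overlap, with a log2 fold change of -1.10 (SE 0.20, adjusted p = 0.0017). The calls of these 3 transporters held in each of 10 alternative fits, the adjusted p reaching at most 0.012 for SLC2A1, 0.045 for SLC2A2 and 0.019 for SLC2A3. SLC16A3 (MCT4), which exports lactate, did not pass, with 355 and 348 CPM in BaP and 408 and 353 CPM in vehicle (log2 fold change -0.11, SE 0.13, adjusted p = 0.72).

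HK2, which traps glucose in the cell by phosphorylation, had 83.8 and 97.7 CPM in BaP at 12 h, against 115 and 131 CPM in vehicle at 12 h. The groups lay apart, and the log2 fold change was -0.44 (SE 0.12, adjusted p = 0.038). HK2 no longer passed with any 1 library left out: the adjusted p was 0.44 without replicate 1 of BaP, 0.081 without replicate 2 of BaP, 0.057 without replicate 1 of vehicle and 0.19 without replicate 2 of vehicle. None of the other 15 enzymes tested passed at 12 h, and LDHA, which turns pyruvate into lactate, had 895 and 936 CPM in BaP and 1051 and 1174 CPM in vehicle (log2 fold change -0.28, SE 0.15, adjusted p = 0.32). PDK1, the kinase that shuts off pyruvate dehydrogenase, had 16.7 and 18.2 CPM in BaP and 21.4 and 22.8 CPM in vehicle. Its libraries did not overlap, but the log2 fold change of -0.33 (SE 0.14) had an adjusted p of 0.20.

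HIF1A had 166 and 167 CPM in BaP at 12 h, against 120 and 133 CPM in vehicle at 12 h. Both BaP libraries were above both vehicle libraries, with a log2 fold change of 0.40 (SE 0.11, adjusted p = 0.033). The call of HIF1A was lost with no filter on low counts (adjusted p = 0.058) and with any 1 library left out, at 0.24 without replicate 1 of BaP, 0.24 without replicate 2 of BaP, 0.21 without replicate 1 of vehicle and 0.063 without replicate 2 of vehicle. ADM, which encodes the vasodilator peptide adrenomedullin, had 16.7 and 12.6 CPM in BaP at 12 h, against 7.53 and 6.36 CPM in vehicle. The log2 fold change was 1.07 (SE 0.20, adjusted p = 0.0024), and it did not pass without replicate 1 of BaP (adjusted p = 0.064). No other gene of the hypoxia-responsive group passed at 12 h: VEGFA, the endothelial growth factor, had a log2 fold change of 0.09 (SE 0.11), BNIP3, a mitophagy receptor, had -0.03 (SE 0.11), and CA9, a carbonic anhydrase of the cell surface, had 0.23 (SE 0.29).

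**Figure D1:**
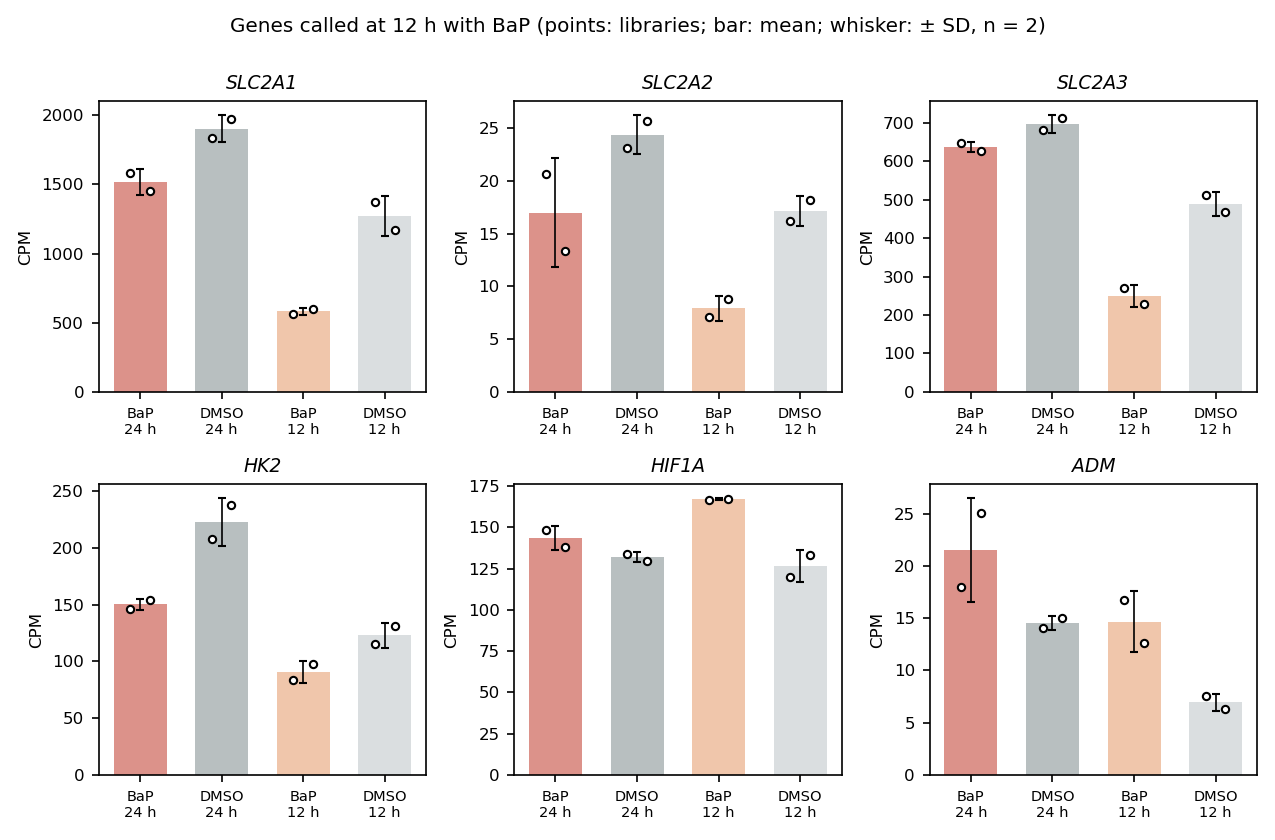
Level in CPM of the 6 genes that passed at 12 h with BaP, by group (BaP 24 h, vehicle 24 h, BaP 12 h, vehicle 12 h; vehicle is marked DMSO); points are libraries, bars means and whiskers ± SD of 2 libraries. SLC2A1, SLC2A2 and SLC2A3 are lowest in BaP at 12 h, HK2 is below vehicle at both times, and HIF1A and ADM are above vehicle at 12 h.

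Among the genes tested that had an annotated span, the 12 h response to BaP differed with that span. The median log2 fold change was -0.17 in the 2301 that span over 100 kb and 0.05 in the 11224 shorter ones. The 4 genes that fell are all shorter than that limit, spanning 17.0 kb (SLC2A3), 30.4 kb (SLC2A2), 33.8 kb (SLC2A1) and 59.4 kb (HK2). By annotated span, 6 genes tested of the list exceed 100 kb (HK1, PGK1, PFKFB3, EGLN3, BNIP3L and P4HA2). Their log2 fold changes lay between -0.25 for BNIP3L and 0.49 for EGLN3 at 12 h, and none of the 6 passed. An annotated span can exceed the length transcribed in these cells, which was not measured. The part of gene length in the results at 12 h was not tested. The summed level of the 9 hepatocyte markers was also lower with BaP, at 19205 to 20517 CPM in BaP and 25101 to 27385 CPM in vehicle at 12 h, and its part in the transporter result was not tested. APOB, the apolipoprotein B gene, was the 1 hepatocyte marker of 9 that passed at 12 h (log2 fold change -0.81, SE 0.18, adjusted p = 0.0097).

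At 24 h of BaP HK2 was the 1 gene of the list that passed. It was lower, where 2.2% of all genes tested were lower, and 0 of 38 were higher, where 3.11% of all genes were. Of the 38 genes, 3 (ADM, CA9 and ENO2) were higher and 6 were lower at an unadjusted p under 0.05, where 10.8% of all genes were higher and 9.2% lower, and the Wald test of DESeq2 also called 0 higher and 1 lower. The median log2 fold change was -0.07 over the 38 genes and 0.01 over all genes. Over 7467 genes of higher expression, the log2 difference between the 2 libraries of BaP at 24 h had an SD of 0.317. It was 0.174 for vehicle at 24 h, 0.167 for BaP at 12 h and 0.242 for vehicle at 12 h. HK2 had 146 and 154 CPM in BaP at 24 h, against 208 and 237 CPM in vehicle at 24 h. The 2 groups lay apart, with a log2 fold change of -0.56 (SE 0.12, adjusted p = 0.015). The call was lost in a fit of the 4 libraries of this comparison alone (adjusted p = 0.056), without replicate 1 of vehicle (0.059) and without replicate 2 of vehicle (0.19).

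None of the 4 transporters passed at 24 h. SLC2A1 had 1583 and 1453 CPM in BaP at 24 h, against 1833 and 1972 CPM in vehicle at 24 h. The BaP libraries were both lower, but the log2 fold change of -0.33 (SE 0.15) did not pass (adjusted p = 0.23). SLC2A3 had 647 and 628 CPM in BaP and 681 and 714 CPM in vehicle, a log2 fold change of -0.13 (SE 0.14, adjusted p = 0.65). SLC2A2 had 20.6 and 13.3 CPM in BaP and 23.1 and 25.7 CPM in vehicle, without overlap, and its log2 fold change was -0.64 (SE 0.20, adjusted p = 0.080). Its adjusted p was 0.016 when low counts were not filtered and 0.0036 without replicate 1 of BaP at 24 h, so that SLC2A2 passed as lower in those fits. SLC16A3 had 383 and 356 CPM in BaP and 397 and 455 CPM in vehicle (log2 fold change -0.21, SE 0.13, adjusted p = 0.42). Each time had its own pair of vehicle libraries. The difference between the BaP effects, 24 h minus 12 h, was 0.84 on the log2 scale for SLC2A3 (SE 0.19, adjusted p = 0.071) and 0.80 for SLC2A1 (SE 0.21, adjusted p = 0.13). It was 0.46 for SLC2A2 (SE 0.28, adjusted p = 0.64) and -0.09 for SLC16A3 (SE 0.19, adjusted p = 0.92), so it passed for none of the 4.

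For the difference between the BaP effects 0 of 38 genes passed in edgeR, where 0.461% of all genes had a higher and 0.0814% a lower effect at 24 h. At an unadjusted p under 0.05 there were 2 with a higher effect, SLC2A1 and SLC2A3, and 1 with a lower effect, PFKFB3, where 5.51% and 4.0% of all genes were past that limit in those directions. The Wald test of DESeq2 called 2, SLC2A1 (adjusted p = 0.0023) and SLC2A3, and so did the fits with no filter (SLC2A1 0.016), without replicate 1 of BaP at 24 h (SLC2A1 0.037) and without replicate 2 of BaP at 24 h (SLC2A1 0.025).

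Without overlap between BaP and vehicle libraries were 24 of the 38 genes at 24 h (63.2%), where 47.3% of all genes tested were, and 20 of 38 at 12 h (52.6%), where 49.4% of all genes were. CA9, ADM, PFKFB3 and PFKFB4 were among the 24 and did not pass, but each passed with no filter on low counts. The filter had kept each of these genes. The fit without it took in further genes, and the scaling, the spread and the adjustment were computed anew over the larger set. CA9 had 58.1 and 40.6 CPM in BaP and 28.2 and 28.1 CPM in vehicle (log2 fold change 0.75, SE 0.28, adjusted p = 0.18), with both BaP libraries above vehicle. With no filter the adjusted p was 0.00067 for CA9, 0.036 for ADM, 0.038 for PFKFB3 and 0.0014 for PFKFB4. ADM had 18.0 and 25.0 CPM in BaP against 14.1 and 15 CPM in vehicle, again without overlap (log2 fold change 0.64, SE 0.20, adjusted p = 0.074), and passed without replicate 1 of BaP at 24 h (0.0085). PFKFB3 and PFKFB4 make and break fructose 2,6-bisphosphate, the activator of phosphofructokinase. PFKFB3 had 34.2 and 29.2 CPM in BaP and 44.5 and 41.3 CPM in vehicle at 24 h (log2 fold change -0.48, SE 0.17, adjusted p = 0.11), and passed without replicate 1 of BaP at 24 h (0.038). PFKFB4 had 54.0 and 63.7 CPM in BaP against 87.1 and 88.9 CPM in vehicle (log2 fold change -0.55, SE 0.17, adjusted p = 0.083). PFKM had the most negative log2 fold change, -1.31, but with an SE of 0.68 and levels of 0.750 and 0.535 CPM in BaP and 1.19 and 1.88 CPM in vehicle, it was not distinguished from no change at this depth (adjusted p = 0.30).

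**Figure D2:**
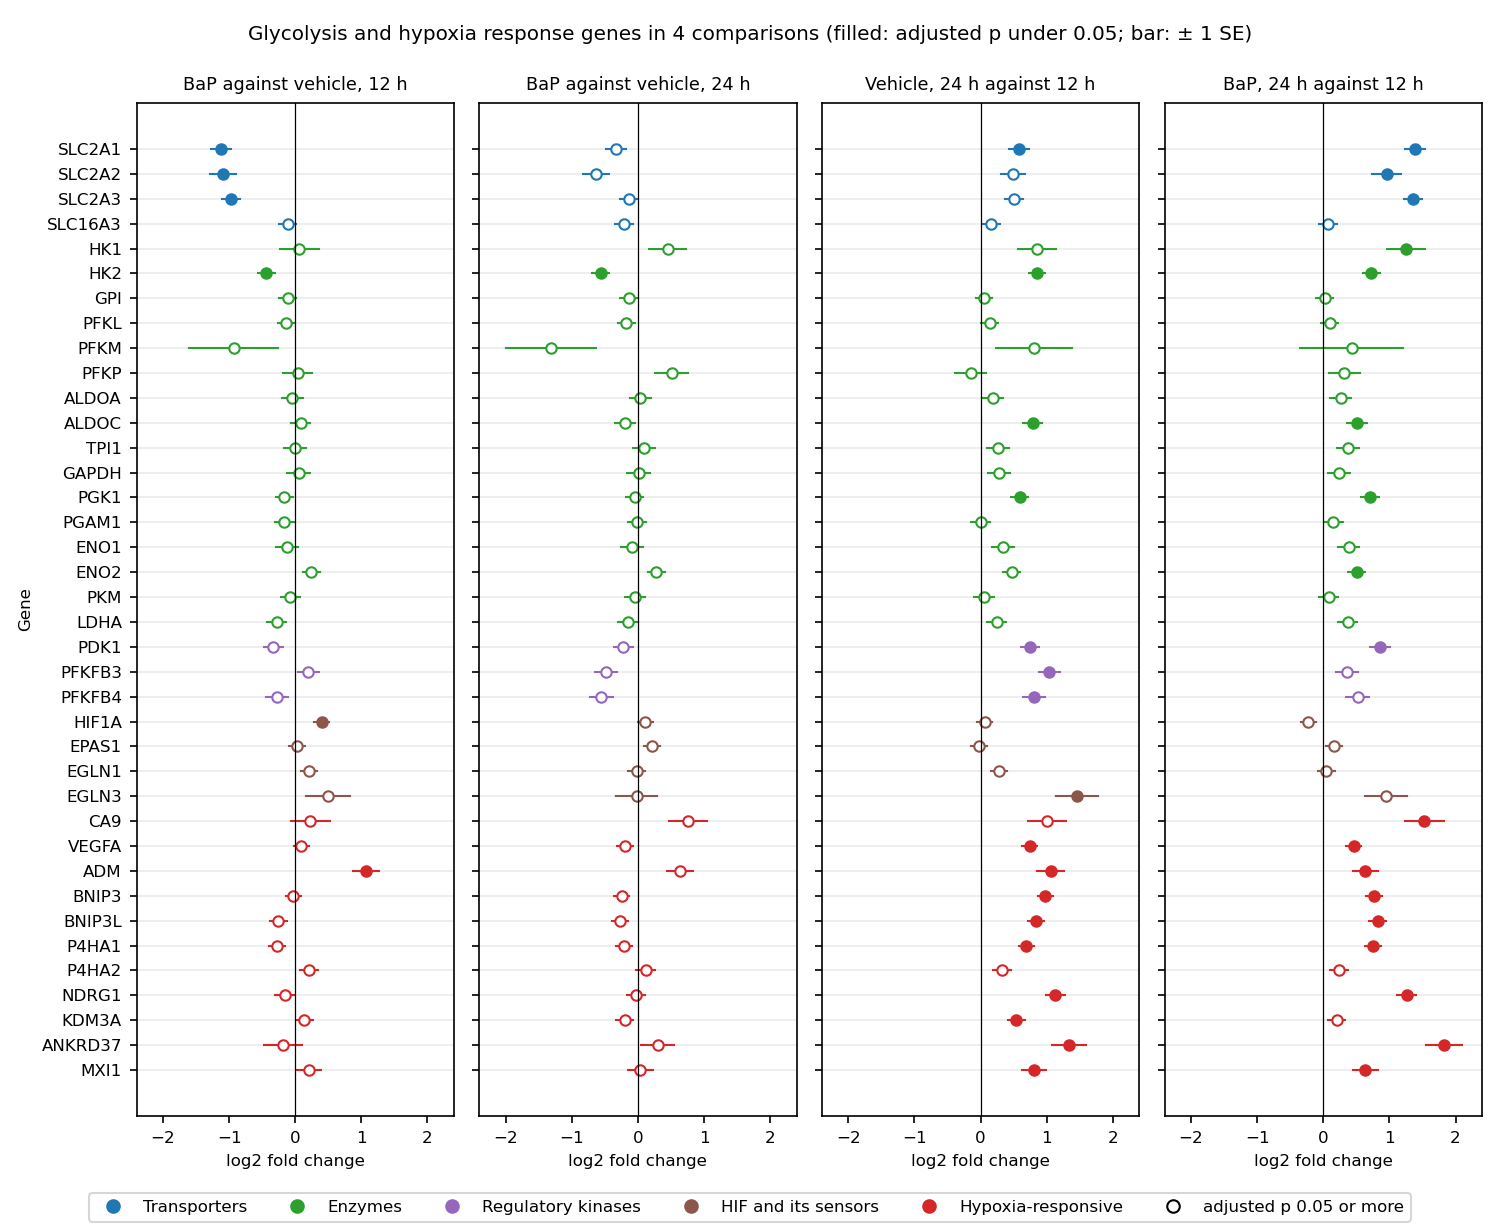
Log2 fold change (± 1 SE) of the 38 genes tested in 4 comparisons, from left to right BaP against vehicle at 12 h, the same at 24 h, vehicle at 24 h against 12 h, and BaP at 24 h against 12 h. Filled points have an adjusted p under 0.05 and colours mark the roles; the transporters lie left of 0 at 12 h of BaP, and the hypoxia-responsive genes lie right of 0 in both comparisons over time.

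More genes of the list passed over time in culture than with BaP. In vehicle, 17 of 38 genes (44.7%) were higher at 24 h than at 12 h, where 2.27% of all genes were higher, and 0 were lower, where 1.01% of all genes were lower. The Wald test of DESeq2 called 17 higher and 0 lower, but not the same 17. It kept 15 of them, MXI1 was lost (adjusted p = 0.084), and the remaining one had no adjusted p there. CA9 (0.014) and SLC2A3 (0.0029) were gained. In edgeR no gene of the list was lower at an unadjusted p under 0.05, where 7.55% of all genes were. The median log2 fold change was 0.56 over the list and 0.01 over all genes tested. The vehicle libraries of the 2 times did not overlap for 30 of the 38 genes (78.9%), where 48.5% of all genes did not. By role, 9 of 11 hypoxia-responsive genes, 3 of 3 regulatory kinases, 1 of 4 HIF and sensor genes, 3 of 16 enzymes and 1 of 4 transporters were higher. No library was taken at the start of exposure, so 24 h was compared with 12 h alone.

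Among the hypoxia-responsive genes, BNIP3 had 192 and 216 CPM in vehicle at 24 h, against 108 and 99.1 CPM in vehicle at 12 h, and 171 and 173 CPM in BaP at 24 h, against 105 and 97.0 CPM in BaP at 12 h. All libraries at 24 h exceeded all at 12 h, and in vehicle the log2 fold change was 0.98 (SE 0.11, adjusted p = 0.00019). BNIP3L, a mitophagy receptor related to BNIP3, had 71.5 and 70.2 CPM in vehicle at 24 h, against 39.6 and 39.6 CPM at 12 h, and 55.5 and 60.9 CPM in BaP at 24 h, against 36.4 and 30.4 CPM at 12 h. It rose by 0.84 in vehicle (SE 0.12, adjusted p = 0.0011). NDRG1, a stress-responsive gene linked to differentiation, had 255 and 308 CPM in vehicle at 24 h, against 145 and 113 CPM at 12 h, and 282 and 269 CPM in BaP at 24 h, against 124 and 107 CPM at 12 h. The 24 h and 12 h libraries of NDRG1 were likewise apart, with a log2 fold change of 1.13 in vehicle (SE 0.14, adjusted p = 0.00033). VEGFA, which drives vessel growth, had 147 and 152 CPM in vehicle at 24 h, against 91.3 and 87.5 CPM at 12 h, and 143 and 121 CPM in BaP at 24 h, against 92.5 and 97.5 CPM at 12 h. It rose by 0.74 in vehicle (SE 0.12, adjusted p = 0.0017), without overlap between times.

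ANKRD37, an ankyrin-repeat gene known as a HIF-1 target, had 10.2 and 12.2 CPM in vehicle at 24 h, against 4.69 and 4.08 CPM at 12 h, and 9.99 and 15.4 CPM in BaP at 24 h, against 5.06 and 2.87 CPM at 12 h. Its log2 fold change in vehicle, 1.34 (SE 0.26, adjusted p = 0.0090), was exceeded within the list only by that of EGLN3. ADM had 14.1 and 15 CPM in vehicle at 24 h, against 7.53 and 6.36 CPM at 12 h, and rose by 1.06 (SE 0.20, adjusted p = 0.0077). P4HA1, a subunit of the prolyl hydroxylase that stabilises collagen, had 74.9 and 81.4 CPM in vehicle at 24 h, against 45.4 and 51.1 CPM at 12 h, and 65.1 and 69.1 CPM in BaP at 24 h, against 39.9 and 39.9 CPM at 12 h. The groups did not overlap in either treatment, and the rise in vehicle was 0.69 (SE 0.12, adjusted p = 0.0032). MXI1, an antagonist of MYC, had 16.4 and 13.1 CPM in vehicle at 24 h, against 8.12 and 9.07 CPM at 12 h, and 14.3 and 15.9 CPM in BaP at 24 h, against 9.07 and 10.6 CPM at 12 h. KDM3A, a histone H3 lysine demethylase, had 79.4 and 103 CPM in vehicle at 24 h, against 60.7 and 64.2 CPM at 12 h, and 79.5 and 78.7 CPM in BaP at 24 h, against 68.4 and 69.1 CPM at 12 h. Both passed in vehicle, with log2 fold changes of 0.80 for MXI1 (SE 0.18, adjusted p = 0.022) and 0.54 for KDM3A (SE 0.13, adjusted p = 0.027).

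The hypoxia-responsive genes that did not pass in vehicle were CA9 and P4HA2. CA9 had 28.2 and 28.1 CPM in vehicle at 24 h, against 18.2 and 9.98 CPM at 12 h (log2 fold change 1.00, SE 0.29, adjusted p = 0.12), the 12 h libraries differing widely. It passed with no filter (adjusted p = 1.7e-06), in DESeq2 (0.014) and without replicate 1 of vehicle at 12 h (0.013). P4HA2, a second prolyl hydroxylase subunit, had a log2 fold change of 0.32 (SE 0.14, adjusted p = 0.25).

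**Figure D3:**
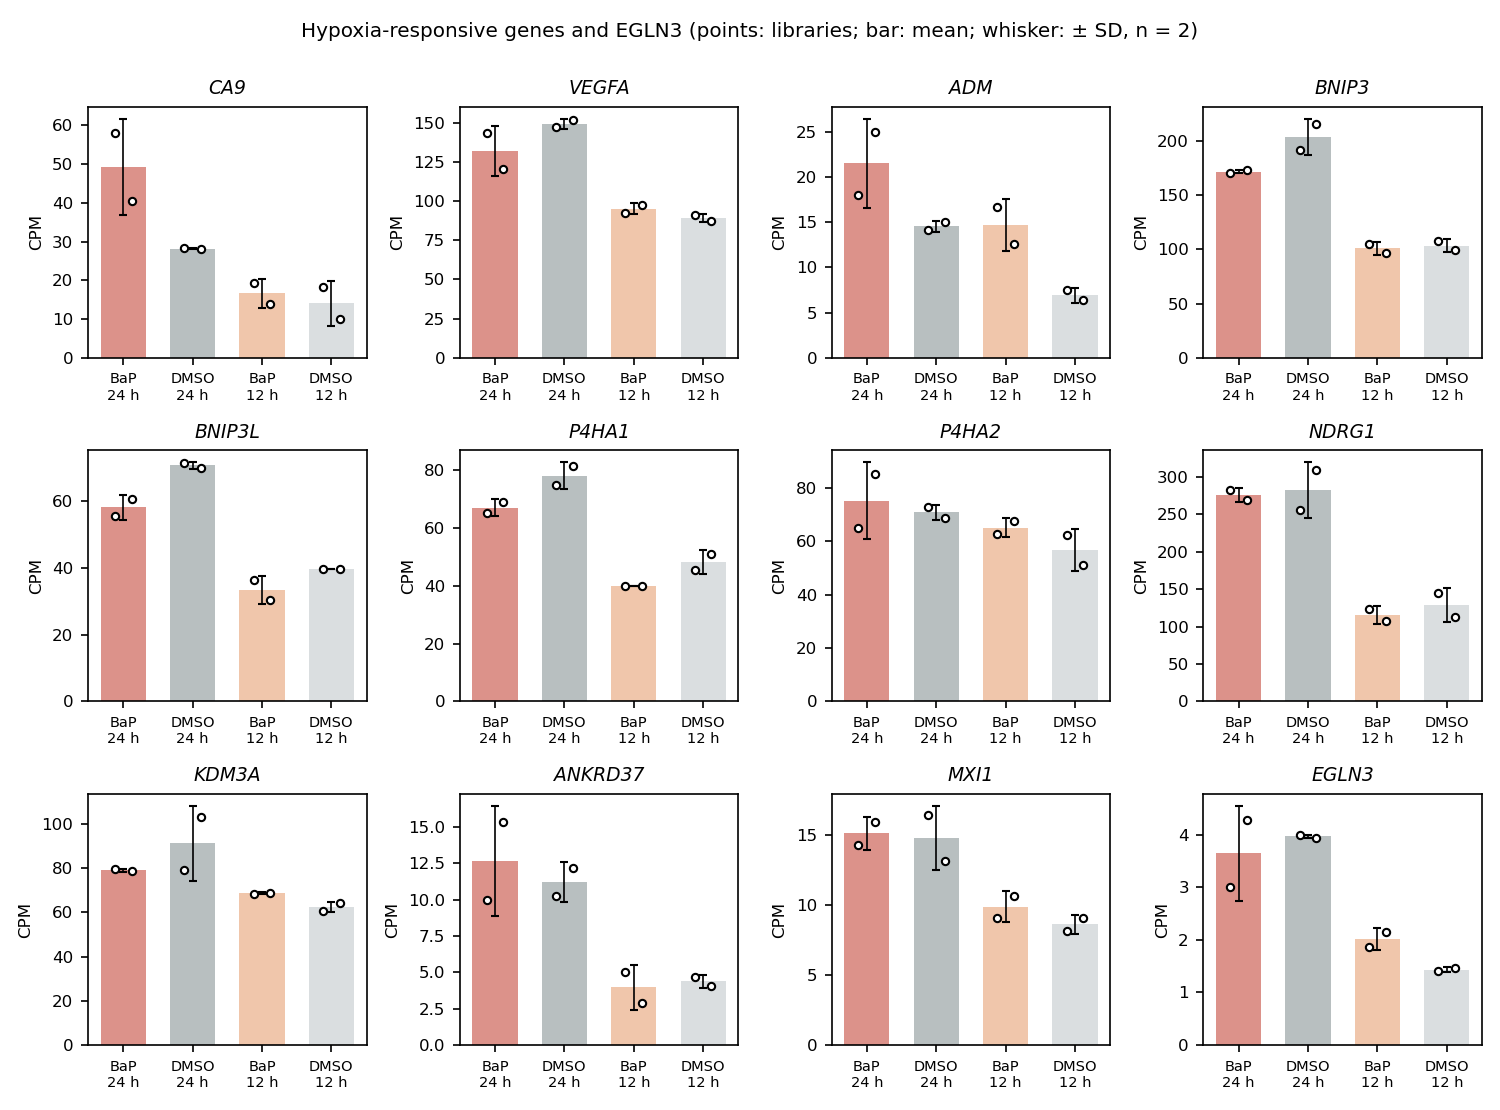
Level in CPM of the 11 hypoxia-responsive genes and of EGLN3, by group (BaP 24 h, vehicle 24 h, BaP 12 h, vehicle 12 h; vehicle is marked DMSO); points are libraries, bars means and whiskers ± SD of 2 libraries. In 10 panels both groups at 24 h stand above both groups at 12 h. In P4HA2 the times overlap in BaP, and in ADM BaP at 12 h reaches the level of vehicle at 24 h. Of all genes tested, 48.5% in vehicle and 55.7% in BaP had no overlap between times.

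Of the sensors, EGLN3, the prolyl hydroxylase that is itself induced by HIF, had 3.99 and 3.94 CPM in vehicle at 24 h, against 1.40 and 1.47 CPM at 12 h, and 3.00 and 4.28 CPM in BaP at 24 h, against 1.86 and 2.16 CPM at 12 h. It rose by 1.46 in vehicle (SE 0.32, adjusted p = 0.018), at low counts. The transcripts of the factors themselves did not pass over time: in vehicle HIF1A had 134 and 130 CPM at 24 h and 120 and 133 CPM at 12 h (log2 fold change 0.06, SE 0.11, adjusted p = 0.85), with overlap. EPAS1 had a log2 fold change of -0.03 (SE 0.12), and EGLN1, the main oxygen sensor of most cells, had 0.28 (SE 0.12, adjusted p = 0.27).

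All 3 regulatory kinases rose with time in vehicle. PFKFB3 had 44.5 and 41.3 CPM in vehicle at 24 h, against 24.3 and 17.8 CPM at 12 h, a log2 fold change of 1.04 (SE 0.16, adjusted p = 0.0016). Its BaP libraries had 34.2 and 29.2 CPM at 24 h and 26.0 and 22.4 CPM at 12 h. PFKFB4 had 87.1 and 88.9 CPM in vehicle at 24 h, against 59.5 and 41.4 CPM at 12 h (log2 fold change 0.80, SE 0.16, adjusted p = 0.016). In both kinases the vehicle libraries at 24 h stood above every other library. PDK1 had 35.4 and 39.5 CPM in vehicle at 24 h, against 21.4 and 22.8 CPM at 12 h, and 28.9 and 33.4 CPM in BaP at 24 h, against 16.7 and 18.2 CPM at 12 h. It rose by 0.75 in vehicle (SE 0.14, adjusted p = 0.0063).

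Of the enzymes, HK2, ALDOC and PGK1 rose, while the abundant ones did not pass. HK2 had 208 and 237 CPM in vehicle at 24 h, against 115 and 131 CPM at 12 h (log2 fold change 0.85, SE 0.12, adjusted p = 0.00099). ALDOC, the brain-type aldolase, had 48.6 and 45.3 CPM in vehicle at 24 h, against 30.6 and 24.1 CPM at 12 h, and 36.0 and 44.0 CPM in BaP at 24 h, against 28.4 and 29.3 CPM at 12 h. PGK1, the phosphoglycerate kinase that yields ATP in the pathway, had 495 and 505 CPM in vehicle at 24 h, against 346 and 318 CPM at 12 h, and 453 and 512 CPM in BaP at 24 h, against 296 and 296 CPM at 12 h. Neither gene had overlap between times, and in vehicle the log2 fold changes were 0.79 for ALDOC (SE 0.14, adjusted p = 0.0057) and 0.59 for PGK1 (SE 0.13, adjusted p = 0.017). LDHA had 1314 and 1315 CPM in vehicle at 24 h, against 1051 and 1174 CPM at 12 h (log2 fold change 0.24, SE 0.15, adjusted p = 0.46). GAPDH, ALDOA, TPI1, ENO1, PKM, the pyruvate kinase of tumours, GPI, the glucose 6-phosphate isomerase, PFKL, and PGAM1, the phosphoglycerate mutase, passed in none of the 4 comparisons of BaP and time, nor did PFKP and PFKM. Their log2 fold changes over time in vehicle ran between -0.15 for PFKP and 0.81 for PFKM (SE 0.58). SLC2A1 rose by 0.58 in vehicle (SE 0.15, adjusted p = 0.042), with the values given above for each time.

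In vehicle over time the calls of HK2, PFKFB3, VEGFA, BNIP3, BNIP3L and NDRG1 held in each of 10 alternatives, and with 1 library left out 6 to 12 genes of the list were called higher. Without replicate 2 of vehicle at 24 h the adjusted p was 0.42 for SLC2A1, 0.055 for ALDOC, 0.22 for PGK1, 0.13 for PDK1, 0.14 for PFKFB4, 0.13 for EGLN3, 0.089 for ADM, 0.085 for P4HA1, 0.52 for KDM3A, 0.12 for ANKRD37 and 0.074 for MXI1. Without replicate 1 of vehicle at 24 h it was 0.17 for SLC2A1, 0.093 for ALDOC, 0.13 for PGK1, 0.10 for PFKFB4, 0.16 for EGLN3, 0.066 for ADM and 0.35 for MXI1. Without replicate 2 of vehicle at 12 h it was 0.28 for SLC2A1, 0.077 for ALDOC, 0.15 for PGK1, 0.11 for PFKFB4, 0.080 for EGLN3, 0.079 for ADM, 0.10 for KDM3A, 0.082 for ANKRD37 and 0.065 for MXI1. Without replicate 1 of vehicle at 12 h it was 0.095 for SLC2A1, 0.070 for PGK1, 0.051 for PDK1, 0.090 for EGLN3, 0.15 for KDM3A and 0.12 for MXI1. MXI1 was also lost in DESeq2 (0.084).

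The core ACGTG of the hypoxia response element was looked for, on both strands, in the 250 bases before the annotated start of each gene in RefSeq (GRCh38.p14). A promoter was matched for 35 of the 39 genes, all but SLC2A3, VEGFA, BNIP3L and NDRG1. The letters ACGTG occurred in 13 of the 35 (37.1%), against 18.5% of 35116 promoters. GCGTG occurred in 12 of the 35 (34.3%), against 32.2% of all. ACGTG or GCGTG occurred in 60.0% of the 35, against 43.2% of all. GCGTG is also the core of TNGCGTG, a motif of the aryl hydrocarbon receptor with ARNT, which occurred in 1 of the 35 promoters (2.86%), that of ENO1, against 4.52% of all. Among genes higher over time in vehicle 6 of 14 promoters held ACGTG, and among those that did not pass 7 of 20 did. GCGTG was in 8 of the 14 and 4 of the 20, and either core was in 10 of the 14 and 11 of the 20. LDHA had the most matches, 5, some of them the same site read on both strands, and did not pass over time. A match is not evidence of binding. The 35116 promoters were not matched to the list in gene type or base composition, and the differences in share were not tested. The 6 genes that rose over time and hold the core are shown because their site can be read beside their values: each line gives the match nearest the start with its flanks on the gene's strand, the core in capitals, which reads CACGT where it lies on the opposite strand.
HK2, chr2:74834067-74834093, plus strand, core 48 bases before the start: aatgggcgtgcgCACGTcactgatccg
ALDOC, chr17:28576909-28576935, minus strand, core 28 bases before the start: ccccggaggagtCACGTagctctgcga
PGK1, chrX:78104053-78104079, plus strand, core 183 bases before the start: aaacggaagccgCACGTctcactagta
BNIP3, chr10:131982042-131982068, minus strand, core 133 bases before the start: cgcacgcgccgcACGTGccacacgcac
P4HA1, chr10:73096938-73096964, minus strand, core 86 bases before the start: tgtgatcgagctCACGTagcgagggct
ANKRD37, chr4:185396686-185396712, plus strand, core 143 bases before the start: cagtgtttgtgtACGTGcggccgtggc

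In BaP libraries, which share none with the vehicle comparison over time, 18 of 38 genes were higher at 24 h than at 12 h, where 10.1% of all genes were higher, and 0 were lower, where 7.34% of all genes were lower. DESeq2 called 17 higher and 0 lower: 15 of the 18 were kept, ADM (adjusted p = 0.13), ALDOC (0.081) and MXI1 (0.12) were lost, and ENO1 (0.037) and LDHA (0.025) were gained. No gene was lower at an unadjusted p under 0.05, where 13.7% of all genes were. The median log2 fold change was 0.48 over the list and 0.02 over all genes. Of the genes called higher, 13 were called in both treatments, which is 76.5% of the 17 of vehicle and 72.2% of the 18 of BaP. Over all genes tested, 265 were called higher in both, 79.3% of the 334 of vehicle and 17.8% of the 1490 of BaP.

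The genes that passed in BaP but not in vehicle were SLC2A2, SLC2A3, HK1, ENO2 and CA9, and those that passed in vehicle but not in BaP were PFKFB3, PFKFB4, EGLN3 and KDM3A. The test of that difference is the one between the BaP effects given above, in which none of these 9 passed. In BaP, SLC2A1 had a log2 fold change of 1.38 over time (SE 0.15, adjusted p = 2e-05), SLC2A3 had 1.35 (SE 0.14, adjusted p = 1.2e-05) and SLC2A2 had 0.96 (SE 0.21, adjusted p = 0.0063). In vehicle the log2 fold change of SLC2A3 was 0.51 (SE 0.14, adjusted p = 0.051), and it passed with no filter (0.024), in DESeq2 (0.0029) and with the 4 vehicle libraries fitted alone (0.013). ENO2, the neuronal enolase, had 68.7 and 81.3 CPM in BaP at 24 h, against 54.1 and 53.2 CPM at 12 h (log2 fold change 0.51, SE 0.13, adjusted p = 0.014), and 57.8 and 68.6 CPM in vehicle at 24 h, against 47.7 and 43.0 CPM at 12 h (adjusted p = 0.058). In vehicle ENO2 passed with no filter (0.042) and with those libraries fitted alone (0.027). HK1, the housekeeping hexokinase, had 5.63 and 9.73 CPM in BaP at 24 h, against 4.07 and 3.17 CPM at 12 h (log2 fold change 1.24, SE 0.29, adjusted p = 0.0075). CA9 had 58.1 and 40.6 CPM in BaP at 24 h, against 19.3 and 14.0 CPM at 12 h, a log2 fold change of 1.53 (SE 0.29, adjusted p = 0.0086). PFKFB3 had a log2 fold change of 0.36 in BaP (SE 0.17, adjusted p = 0.16), against 1.04 in vehicle. PFKFB4 passed in BaP with no filter (log2 fold change 0.48, adjusted p = 0.0085). Without replicate 1 of BaP at 24 h the log2 fold change of EGLN3 in BaP was 1.06.

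In BaP over time the calls of SLC2A1, SLC2A3, HK2, PGK1, PDK1, BNIP3, BNIP3L, P4HA1, NDRG1 and ANKRD37 held in each of 10 alternatives. Leaving out replicate 1 of BaP at 12 h ended those of SLC2A2 (adjusted p = 0.064), ALDOC (0.16), ENO2 (0.089), VEGFA (0.13) and MXI1 (0.19). Leaving out replicate 2 of BaP at 12 h ended those of HK1 (0.12), ALDOC (0.16), ENO2 (0.13), CA9 (0.085), VEGFA (0.097), ADM (0.34) and MXI1 (0.096). Leaving out replicate 2 of BaP at 24 h ended those of HK1 (0.45), ALDOC (0.41), ENO2 (0.21), ADM (0.58) and MXI1 (0.33). VEGFA reached 0.050 without replicate 1 of BaP at 24 h. With the 4 BaP libraries fitted alone, ADM (0.057) and VEGFA (0.052) did not pass.

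**Figure D4:**
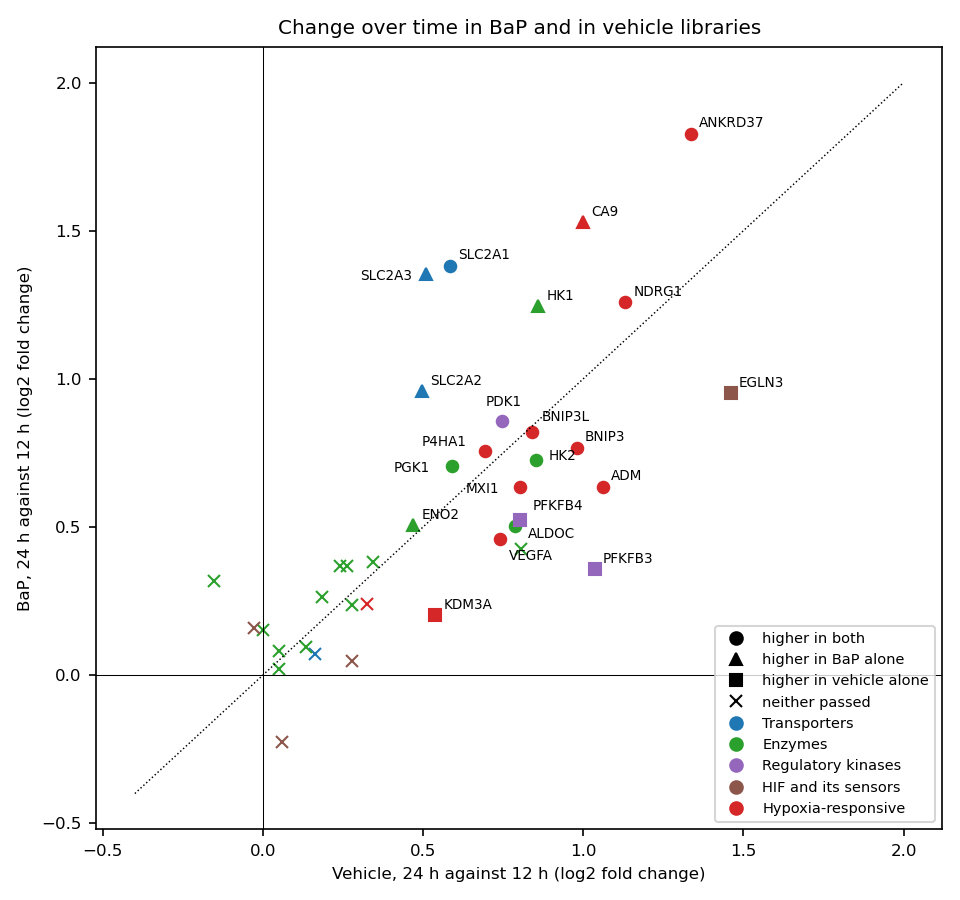
Log2 fold change at 24 h against 12 h in BaP (vertical axis) and in vehicle (horizontal axis) for the 38 genes tested; colours mark roles, shapes mark in which treatment a gene passed, and the dotted line marks equal changes. SLC2A1 and SLC2A3 lie above the line (1.38 and 1.35 in BaP, 0.58 and 0.51 in vehicle), and PFKFB3 lies below it (0.36 in BaP, 1.04 in vehicle).

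Genes of the same pathways outside the 39 gave the following counts. Of 37 other genes of glucose metabolism 27 were tested, and at 12 h of BaP 3 were higher and 3 lower, where 3.41% of all genes were higher and 4.84% lower. SLC2A8, an intracellular sugar transporter, had 134 and 123 CPM in BaP and 79.0 and 65.8 CPM in vehicle at 12 h (log2 fold change 0.83, SE 0.13, adjusted p = 0.00048), a direction opposite to that of the 3 SLC2A genes of the list. The p53 target TIGAR, which lowers fructose 2,6-bisphosphate, rose by 0.74 at 12 h (SE 0.18, adjusted p = 0.016) and by 1.37 at 24 h (SE 0.21, adjusted p = 0.00086). HKDC1, a hexokinase-like gene, rose by 0.60 at 12 h (adjusted p = 0.043) and by 0.87 at 24 h (adjusted p = 0.012). SLC2A10, another transporter of the family, fell by 0.70 at 12 h (adjusted p = 0.025) and by 0.86 at 24 h (adjusted p = 0.015). PKLR, the pyruvate kinase of liver, fell by 0.73 at 12 h (adjusted p = 0.011) and PDK2, a second pyruvate dehydrogenase kinase, by 0.48 (adjusted p = 0.036). At 24 h 3 were higher, SLC2A8, TIGAR and HKDC1, and 1 was lower, SLC2A10, where 3.11% of all genes were higher and 2.2% lower. Over time in vehicle 1 was higher, the gluconeogenic PCK1 (log2 fold change 1.45, adjusted p = 0.040), and 1 was lower, SLC2A8 (-0.58, adjusted p = 0.025), where 2.27% of all genes were higher and 1.01% lower.

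A further list of 40 hypoxia genes includes regulators such as ARNT, VHL and HIF1AN, and TF, which was also counted as a hepatocyte marker. Of the 40, 36 were tested. Over time in vehicle 13 were higher, where 2.27% of all genes were, and 0 lower, where 1.01% were, with a median log2 fold change of 0.46. No gene of this list was called lower in BaP over time either, in which 13 were higher, where 10.1% of all genes were higher and 7.34% lower. Of those with the smallest p in vehicle, 5 were IGFBP1, a binding protein of insulin-like growth factors (log2 fold change 2.16, adjusted p = 7e-06), the repressor BHLHE40 (1.26, adjusted p = 4.8e-05), the collagen-crosslinking LOX (1.37, adjusted p = 5.6e-05), IGFBP3 (2.76, adjusted p = 0.00021) and ANGPTL4, an inhibitor of lipoprotein lipase (1.59, adjusted p = 0.00077). With BaP at 12 h 3 were higher and 3 lower, where 3.41% and 4.84% of all genes were, and 2 of the 3 higher ones are given here. IGFBP1 had 626 and 737 CPM in BaP, against 368 and 361 CPM in vehicle at 12 h (log2 fold change 0.90, SE 0.16, adjusted p = 0.0018). IGFBP3 rose by 1.39 at low counts (adjusted p = 0.025), and the histone demethylases KDM4B (-1.02, adjusted p = 0.0012) and KDM4C (-0.66, adjusted p = 0.013) and the zinc-finger gene ZNF395 (-0.51, adjusted p = 0.021) fell. At 24 h of BaP 3 were higher, where 3.11% of all genes were, IGFBP1 and IGFBP3 again among them, and 2 were lower, where 2.2% were, ZNF395 and RORA, a nuclear receptor.

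The use of alternative transcripts could be tested for 22 of the 39 genes, those with 2 or more transcripts holding at least 10% of the gene's counts. At 12 h of BaP 0 of 22 passed edgeR's gene-level test of transcript usage, where 0.307% of all 6831 genes passed; 2, HK1 and P4HA1, had an unadjusted p under 0.05, where 5.05% of all genes did, and the Simes test also called 0. At 24 h 1 of 22 passed, where 0.922% of all genes did, and it was the lactate exporter SLC16A3 (adjusted p = 0.0096). The transcript SLC16A3-202 held 8.16% and 4.52% of the gene's estimated counts in BaP at 24 h, against 21.4% and 26.5% in vehicle at 24 h, and it held 25.7% and 32.6% in BaP at 12 h, against 21.7% and 24.6% in vehicle at 12 h. The transcript SLC16A3-201 held 85.8% and 90.1% in BaP at 24 h, against 72.3% and 67.6% in vehicle at 24 h. Both BaP libraries at 24 h stood apart from the other 6, while the total level of the gene did not pass (369.6 CPM ± 18.7 in BaP and 426 CPM ± 41.1 in vehicle at 24 h, SD, n = 2 each). In GENCODE 29 the 2 transcripts have the same coding exons and the same end, and start 3.83 kb apart, so they differ ahead of the coding sequence. The call did not hold in every alternative, and without replicate 2 of vehicle at 24 h the adjusted p was 0.076. RSEM divides reads shared by both transcripts by a model, and reads of the part in which they differ were not counted separately here.

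**Figure D5:**
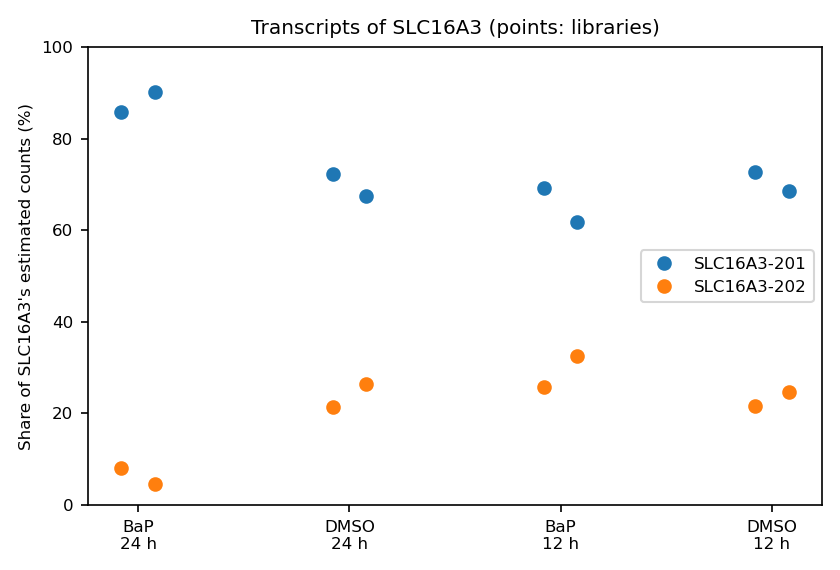
Share of the estimated counts of SLC16A3 held by its 2 main transcripts (vertical axis, percent) in each library of the 4 groups (BaP 24 h, vehicle 24 h, BaP 12 h, vehicle 12 h; vehicle is marked DMSO). SLC16A3-202 stands at 8.16% and 4.52% in BaP at 24 h and between 21.4% and 32.6% in the other 6 libraries.

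Markers moved with some of these comparisons. The summed level of the 9 hepatocyte markers was 21829 to 24315 CPM in BaP and 29569 to 33814 CPM in vehicle at 24 h, and in vehicle it was higher at 24 h than at 12 h. APOB was the 1 of the 9 called with BaP at 24 h (log2 fold change -0.75, SE 0.18, adjusted p = 0.025), and it was lower. TTR, the transthyretin gene, was the 1 marker of the 9 called over time in vehicle (log2 fold change 1.35, SE 0.27, adjusted p = 0.048). Of 6 fibroblast and stellate markers 2 could be tested, and the receptor gene PDGFRB had 8.95 and 9.08 CPM in BaP against 17.3 and 15.9 CPM in vehicle at 12 h, and 24.4 and 20.3 CPM in BaP against 28.6 and 29.1 CPM in vehicle at 24 h. PDGFRB was called lower with BaP at 12 h (log2 fold change -0.88, SE 0.16, adjusted p = 0.0020), not at 24 h (adjusted p = 0.15), and higher over time in vehicle (0.80, adjusted p = 0.0063) and in BaP (1.26, adjusted p = 0.00011). COL1A1, the other one tested, and CDH5, the 1 endothelial marker tested, passed in none of these comparisons, with log2 fold changes of -1.90 for COL1A1 (SE 0.83) and -1.53 for CDH5 (SE 0.54) with BaP at 24 h. The 6 together summed to 25.8 to 31.5 CPM in BaP and 39.6 to 57.1 CPM in vehicle at 24 h, and to 20.0 to 28.9 CPM in BaP and 35.3 to 59.9 CPM in vehicle at 12 h, with DCN and LUM at 0. Of 5 leukocyte markers 2, CD14 and CD68, could be tested; the 5 summed to 58.9 to 61.6 CPM in BaP and 38.6 to 39.4 CPM in vehicle at 24 h, and to 45.6 to 49.4 CPM in BaP and 38.4 to 42.4 CPM in vehicle at 12 h. Both were called higher with BaP at 24 h, CD14 with a log2 fold change of 1.54 (SE 0.32, adjusted p = 0.0096) and CD68 with 0.56 (SE 0.13, adjusted p = 0.019). At 12 h CD14 was called higher with 1.04 (SE 0.31, adjusted p = 0.048), and CD68 had 0.19 (adjusted p = 0.44). The part of these shifts in the results for glycolysis and hypoxia genes was not tested.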

How the data were processed

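The estimated counts per gene and transcript were deposited by the authors, 1 pair of tables per library, made with Bowtie 0.12.7 and RSEM 1.1.7 per the submitters' processing notes, which also name edgeR. The deposited fraction of each gene is its length-corrected share of transcripts, and TPM here is that fraction on a scale of 1000000. Gene models were Ensembl release 58, and no source used here names the genome build. Counts were rounded and fitted for all 8 libraries in edgeR 4.0.16 (R 4.3.3) with 1 mean per group, filterByExpr (minimum count 10, total 15), TMM scaling and robust quasi-likelihood tests, two-sided, adjusted by Benjamini and Hochberg over 14746 genes. CPM use TMM-scaled library sizes, and the SE is the log2 fold change divided by the root of F. With 2 libraries per group, p-values rest on spread pooled over groups. Transcript usage was tested with diffSpliceDGE. BaP over time was added after the data were seen. The tests were tried on simulated data. The genes and lists were chosen with earlier results of these data known. Genes with a call in any comparison, 10 set genes, and up to 6 per further list are given with values, except for 1 gene that is not reported here. Alternatives were DESeq2 1.42.0, its size factors, no filter, a replicate block, each comparison's libraries alone, added pseudogene reads, and leaving out each library; for usage also the Simes test and no minimum share.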

Additional observations from a re-analysis of the deposited data

How the results depend on the processing

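For the genes called in a comparison and 10 set genes, 778 values were computed under an alternative: 682 kept their direction and side of the threshold, 71 no longer passed, 15 newly passed and 10 changed sign. Over all 38 genes tested 35 values newly passed. Those that changed sign, each with 1 library left out and none passing in either fit, ranged over the left-out libraries, for BaP at 12 h, from -0.171 to 0.721 for CA9 (at -0.0116 without replicate 1 of BaP), from -0.111 to 0.0327 for BNIP3 (0.0132 without replicate 2 of BaP) and from -0.0315 to 0.445 for PFKFB3; for BaP at 24 h, from -0.147 to 0.0303 for PGK1 and from -0.405 to 0.104 for EGLN3; in vehicle over time, from -0.0171 to 0.112 for HIF1A; and for the difference of BaP effects, from -0.228 to 0.0045 for HK2 and from -0.0181 to 0.255 for LDHA. With no filter, 1 gene of the list was higher with BaP at 12 h (2 as reported); at 24 h 1238 genes in all passed (782 as reported), with 2 of the list higher (0) and 4 lower (1); in vehicle over time 805 passed (483); and for the difference 240 passed (80), with 2 of the list higher (0). DESeq2 called 800 genes at 12 h (1216), 1650 in BaP over time (2573) and 2 of the list for the difference (0). With each comparison's libraries alone, 379 genes passed at 24 h, 0 of the list lower, and 853 in vehicle over time. The sample labels do not state whether libraries with equal replicate numbers belong together. Between groups, the correlations of replicate differences ran from -0.0655 to 0.163, the highest being that of BaP and vehicle at 12 h. The replicate block called 1 of the list higher at 24 h (0), CA9 (adjusted p = 0.020). With the block CA9 also passed in vehicle over time (0.0074), where SLC2A1 did not (0.061), and PFKFB4 passed in BaP over time. For usage the block called 2 genes at 12 h (21) and 33 at 24 h (63). Of the list it called 0 for usage at 24 h (1), SLC16A3 having an adjusted p of 0.061. The Simes test called 12 and 22 genes for usage. Leaving out 1 library gave 424 to 883 genes at 12 h, with 0 to 1 of the list higher; 169 to 1956 at 24 h, with 0 to 1 of the list higher and 0 to 3 lower; 87 to 232 in vehicle over time, with 6 to 12 of the list higher; 759 to 3582 in BaP over time, with 11 to 22 higher; and 28 to 348 for the difference, with 0 to 2 higher. For usage it gave 24 to 43 genes at 12 h, with 0 to 1 of the list, and 60 to 642 at 24 h, with 0 to 4. Fits with 1 library left out also hold fewer libraries, and the cause of these shifts was not tested. Depth limits EGLN3, HK1, PFKM and LDHB most, all with few counts in the shallowest library, replicate 1 of BaP at 24 h.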
